A study of Mus musculus with 9 samples.

Results

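The SAG response of NIH3T3-CG cells was measured as the difference between 6 SAG-treated libraries and 3 untreated libraries that were made in 3 arms and were compared within their arm. NIH3T3-CG is a line of mouse embryonic fibroblasts, and SAG is a small molecule that activates Smoothened. The SAG-treated libraries were taken at 17 and 30 h in Experiment 1, at 19 and 30 h in Experiment 2 without Dox, and at 19 and 30 h in Experiment 2 with Dox. Each arm had 1 untreated library, taken at 0 h of SAG under the same Dox label. Dox is not mentioned in the labels of Experiment 1, and what it switches on in Experiment 2 is not described in them. All 9 libraries of the series were members, and all came from this 1 line. Untreated cells were sampled at 0 h only, so hours in culture and hours of SAG cannot be told apart. The labels do not say whether libraries came from separate cultures, so a p-value here weighs a difference only against library-to-library spread, part of which may be technical.

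RNA was counted per cell with the 10x Genomics 3' kit, in which a unique molecular identifier (UMI) counts 1 captured molecule. Barcodes with at least 5000 UMIs and at most 10% UMIs from mitochondrial genes were kept, 18733 in all, with 571 to 6520 per library. Their counts were summed to 1 profile per library, which held between 19422658 and 106128757 UMIs. The median depth was 8025 UMIs per cell in the SAG library of 19 h without Dox, and it was between 28335 and 48188 UMIs in the other 8 libraries. Pairs of libraries shared at most 9 barcodes, or 0.51% of the smaller library. Fibroblast markers were high in every library, with summed levels of 3572 to 9528 CPM (UMI counts scaled to a common library total with TMM factors) in SAG libraries against 4456 to 9854 CPM in untreated libraries, and none of the 9 was at 0. Epithelial markers summed to at most 0.714 CPM in SAG libraries and 0.478 CPM in untreated libraries, and endothelial markers to at most 1.48 and 0.432 CPM. Immune markers summed to 14.7 to 16.8 CPM in SAG libraries and 10.2 to 14.9 CPM in untreated libraries. Most of this came from Lyz2 (4.07 to 14.9 CPM over the libraries) and Cd68 (0.713 to 12.5 CPM). The other 5 immune markers stayed under 1 CPM, with Cd3e at 0 UMIs in every library.

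In the Hedgehog pathway the receptor Patched (Ptch1) holds Smoothened inactive in the absence of ligand. Once Smoothened is active at the primary cilium, Sufu releases the Gli transcription factors, of which Gli2 and Gli3 are present beforehand and Gli1 is itself a target gene. Gli1 and Ptch1 are the usual readouts of the pathway in fibroblasts. SAG bypasses the ligand, so the pathway is switched on below Ptch1.

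Of 13452 genes tested over the 3 arms with edgeR's quasi-likelihood test and the arm as a block, 102 were called at an adjusted p under 0.05 (0.758%), 27 higher (0.201%) and 75 lower (0.558%), and 3509 had an unadjusted p under 0.05 (26.1%). All 27 that rose did so in each of the 3 arms, and 61 of the 75 that fell did so in each arm (0.453%). For 2 of these, Gm16033 and Gm10778, the direction in Experiment 1 rested on 0 or 1 UMI in each library. Sign alone is a weak criterion, since 18.3% of all genes tested were higher in the 3 arms and 19.8% were lower. Of the 27, all were above their own untreated library in each of the 6 SAG libraries (0.201% of all genes tested). Of the 61, 59 were below their own untreated library in each (0.439% of all genes tested). These 2 percentages count called genes only. Called or not, 10.1% of all genes tested were above in all 6 SAG libraries and 9.77% were below. The 27 and the 61 were called on these same libraries, and the 61 were also chosen for 1 sign in the 3 arms. Their counts over the 6 SAG libraries, 27 of 27 and 59 of 61, are thus largely built in and are no separate support. The CPM values of the SAG and untreated libraries did not overlap across arms for 11 of the 27 and 19 of the 61. The share of all genes tested without such overlap was not computed, so these counts have no background beside them. The median log2 difference over all genes tested was -0.02, 0.01 and 0.02 in Experiment 1, Experiment 2 without Dox and Experiment 2 with Dox.

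Gli1, the transcription factor that amplifies Hedgehog output, had the largest rise of the 27. It lies on the minus strand at chr10:127329882-127341974 (GRCm38). Its level in SAG libraries was 7.95 and 3.98 CPM at 17 and 30 h in Experiment 1, 8.16 and 16.7 CPM at 19 and 30 h without Dox, and 19.7 and 25.6 CPM at 19 and 30 h with Dox, against 0.206, 0.0512 and 0.135 CPM in the untreated libraries of these arms. Every SAG library was far above every untreated library, and the untreated levels rested on 7, 3 and 5 UMIs. The log2 change was 6.78 ± 0.54 (SE; adjusted p = 0.00206, edgeR). Within the arms the log2 difference was 4.57 in Experiment 1, 7.13 without Dox and 7.07 with Dox.

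Ptch1, the receptor that restrains Smoothened and a target of the Gli factors, rose with a log2 change of 3.15 ± 0.54 (SE; adjusted p = 0.037, edgeR). It had 21.3 and 9.87 CPM in the SAG libraries of Experiment 1, 29.9 and 55.5 CPM without Dox and 73.9 and 97.9 CPM with Dox, against 5.14, 3.58 and 3.62 CPM in the untreated libraries. The lowest SAG library, at 30 h in Experiment 1, was still above the highest untreated one. The gene lies at chr13:63508328-63573598 on the minus strand of GRCm38. The RefSeq start used for its promoter lies within this longer GENCODE gene, and the 250 bases before it are at chr13:63565736-63565985. The sequence is shown because Ptch1 is a usual readout of the pathway; it is given 5' to 3' on the gene's strand (RefSeq, GRCm38.p6), and neither strand of it held the GLI letters GACCACCCA.
Ptch1: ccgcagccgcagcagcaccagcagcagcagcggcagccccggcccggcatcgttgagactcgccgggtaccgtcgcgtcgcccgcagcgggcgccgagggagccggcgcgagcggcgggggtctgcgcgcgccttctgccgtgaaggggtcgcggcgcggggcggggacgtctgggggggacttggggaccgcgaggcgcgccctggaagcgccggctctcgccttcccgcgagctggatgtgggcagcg
These letters were in 0.218% of 32536 promoter windows of the same length, and in none of the 19 called rising genes that had a window. The absence says only that these 9 letters were not in the 250 bases searched.

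GFP_g1, a feature that the authors added to the reference and whose construct the labels do not describe, rose by 3.56 ± 0.38 (log2, SE; adjusted p = 0.00834, edgeR). It had 10.2 and 2.79 CPM in the SAG libraries of Experiment 1, 47.2 and 36.1 CPM without Dox and 38.5 and 37 CPM with Dox, against 0.882, 3.28 and 2.59 CPM in the untreated libraries. The groups overlapped across arms, because the 30 h library of Experiment 1 was below the untreated library without Dox, but each SAG library was above its own untreated one.

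The other pathway genes described here did not pass the test over the 3 arms. Gli2, the main activator, had a log2 change of 0.89 ± 0.21 (SE; adjusted p = 0.0712, edgeR), with 6.59 and 4.68 CPM in the SAG libraries of Experiment 1, 5.9 and 9.82 CPM without Dox and 22.7 and 23.1 CPM with Dox, against 4.14, 4.17 and 9.54 CPM untreated. All 6 SAG libraries were above their own untreated library, and at 30 h alone Gli2 passed (log2 0.96, adjusted p = 0.0473, edgeR). Gli3, mostly a repressor in the absence of signal, was -0.30, -0.33 and -0.31 in the 3 arms, a small difference with an adjusted p of 0.179 (edgeR). Smoothened (Smo), the target of SAG, was 0.22 ± 0.14 (log2, SE; adjusted p = 0.327, edgeR), and the arms differed in sign, with -0.19 in Experiment 1, 0.32 without Dox and 0.54 with Dox. Sufu, the inhibitor that binds the Gli proteins, was 0.49 ± 0.17 (log2, SE; adjusted p = 0.132, edgeR). Hhip, an inhibitor that binds Hedgehog ligands, was not detected (0 UMIs) in any of the 9 libraries.

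Among 24 tested genes of a list of Hedgehog targets, Gli1 and Ptch1 were called higher and 0 were called lower over the 3 arms (0.201% and 0.558% of all genes were). In that list 11 were higher and 3 lower at an unadjusted p under 0.05 (edgeR), and 10 higher and 3 lower by DESeq2. The list's median was 0.45 on the log2 scale, against -0.0013 over all genes, and 12 of the 24 were higher in each arm against 18.3% of all genes. Its median by arm was 0 in Experiment 1, 0.46 without Dox and 0.75 with Dox. At 30 h, 6 of the 24 were called higher (1.96% of all genes were) and 2 were called lower (3.69% were). The 6 were Gli1, Ptch1, Hsd11b1 (an enzyme that activates glucocorticoids), Igf1 (a growth factor), Bcl2 (an inhibitor of apoptosis) and Zfpm1 (a cofactor of GATA factors), and the 2 were Gas1 (a Hedgehog co-receptor) and Osr2 (a zinc finger factor); Osr2 and the other members named only for 30 h were picked after their values were seen. Bcl2 had 3.51 and 3.44 CPM in the SAG libraries of Experiment 1, 5.67 and 8.89 CPM without Dox and 11.6 and 16.1 CPM with Dox, against 3.17, 2.78 and 3.21 CPM untreated. Bcl2 thus differed clearly from its untreated libraries in Experiment 2 and by little in Experiment 1. Gas1 had 69.1 and 69.7, 57.4 and 48.6, and 159 and 111 CPM in the SAG libraries of the 3 arms, against 126, 60.2 and 275 CPM untreated, and every SAG library was below its own untreated one. Of 35 tested pathway components, 0 were called over the 3 arms, with 8 higher and 4 lower at an unadjusted p under 0.05 (edgeR) and 3 higher and 2 lower by DESeq2. At 30 h Gli2 and Grk2 (a kinase that phosphorylates Smoothened) were called higher (1.96% of all genes were) and Tulp3 (a trafficking adaptor of the cilium) lower (3.69% were).

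**Figure D1:**
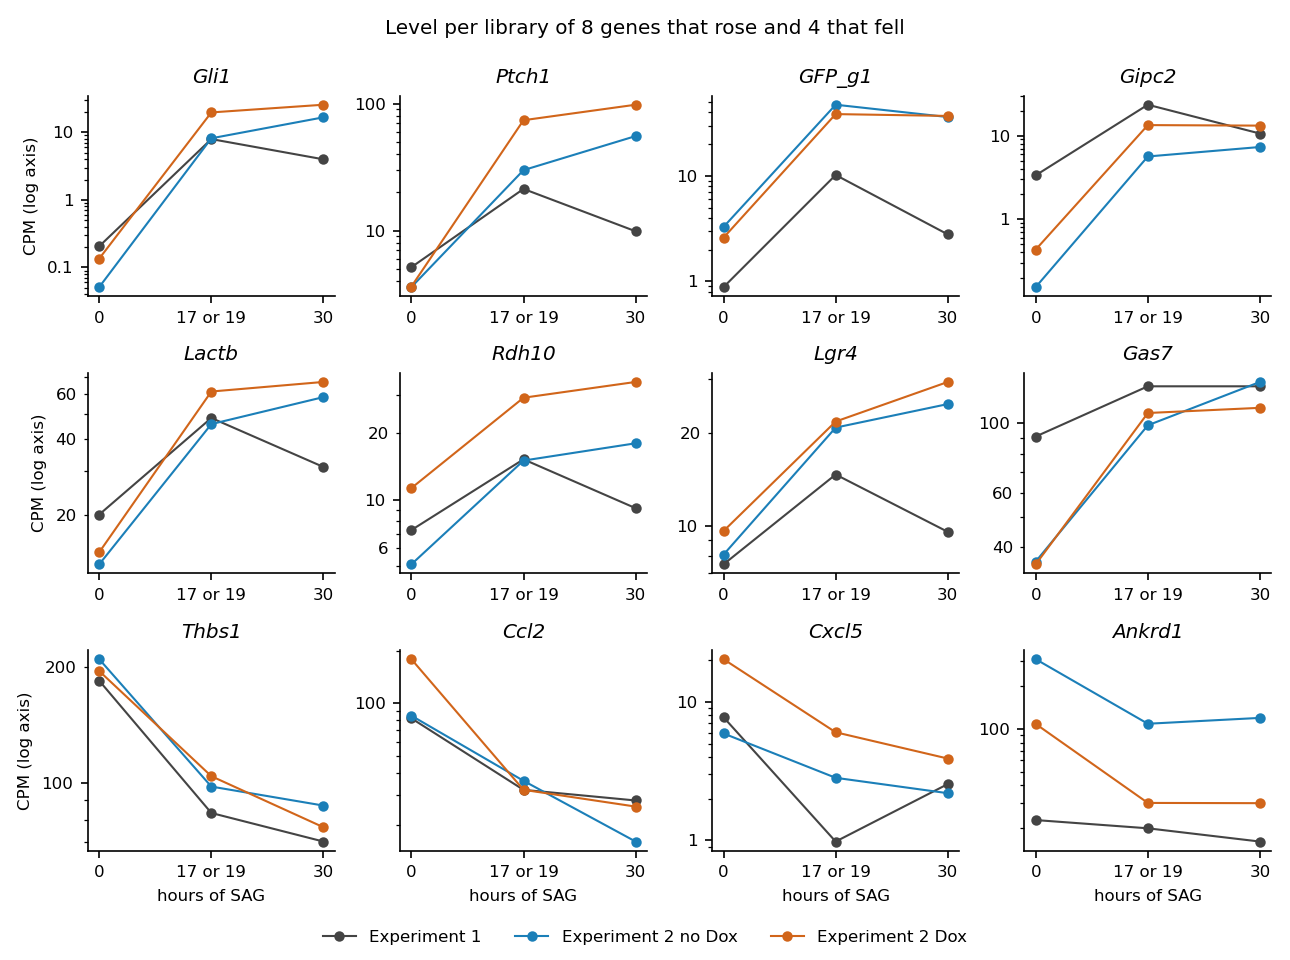
Levels per library of 12 genes in CPM on a log axis against hours of SAG, with 0 h as the untreated library and 1 line per arm (black, Experiment 1; blue, Experiment 2 no Dox; orange, Experiment 2 Dox). Each point is 1 library; Gli1 and Ptch1 were above 0 h in every arm, and Thbs1 fell to similar levels in the 3 arms.

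Outside the pathway, the 12 largest rises among genes that reached 10 CPM included 9 others. Gipc2, a PDZ-domain protein, rose by 3.66 ± 0.51 (log2, SE; adjusted p = 0.022, edgeR). It had 23.5 and 10.6 CPM in the SAG libraries of Experiment 1, 5.63 and 7.32 CPM without Dox and 13.4 and 13.2 CPM with Dox, against 3.35, 0.154 and 0.432 CPM untreated. The groups did not overlap, and the rise was smallest in Experiment 1, whose untreated library was the highest of the 3.

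Lactb, a mitochondrial serine protease-like protein, had 48.4 and 31 CPM in the SAG libraries of Experiment 1, 45.8 and 58.5 CPM without Dox and 61.5 and 67.1 CPM with Dox, against 20.2, 12.8 and 14.3 CPM untreated. Its log2 change was 1.70 ± 0.24 (SE; adjusted p = 0.0228, edgeR), with no overlap between the groups. Lgr4, the R-spondin receptor that strengthens Wnt signalling, had 14.7 and 9.56, 20.9 and 24.9, and 21.8 and 29.4 CPM in the SAG libraries of the 3 arms, against 7.49, 8.06 and 9.62 CPM untreated. It rose by 1.21 ± 0.20 (log2, SE; adjusted p = 0.0367, edgeR), and 1 SAG library, at 30 h in Experiment 1, overlapped the untreated range. The 250 bases before the RefSeq start of Lactb (chr9:66975485-66975734, minus strand) and of Lgr4 (chr2:109917397-109917646, plus strand) are shown because both genes were called higher and both windows held the TEAD letters GGAATG, in capitals on either strand.
Lactb: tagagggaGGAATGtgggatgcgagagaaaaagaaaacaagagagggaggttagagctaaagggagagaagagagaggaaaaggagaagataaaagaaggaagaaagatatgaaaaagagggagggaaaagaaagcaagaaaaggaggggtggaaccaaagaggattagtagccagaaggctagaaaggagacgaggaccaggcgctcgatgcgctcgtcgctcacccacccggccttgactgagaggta
Lgr4: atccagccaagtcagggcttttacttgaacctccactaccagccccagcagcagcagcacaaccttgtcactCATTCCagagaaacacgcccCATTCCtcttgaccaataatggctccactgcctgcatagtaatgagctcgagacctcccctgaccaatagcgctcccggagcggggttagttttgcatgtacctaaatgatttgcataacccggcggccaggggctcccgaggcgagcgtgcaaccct
These letters were in the windows of 4 of the 19 rising genes and 7 of the 41 falling genes that had one, against 12.6% of 32536 windows. A gene counted if any of its windows matched, while the background counted single windows. Add3, a rising gene chosen by the same rule, had 3 windows, and 0 of these motif letters were in them. A match is not evidence of binding.

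Rdh10, the enzyme that makes retinaldehyde on the way to retinoic acid, rose by 1.31 ± 0.21 (log2, SE; adjusted p = 0.034, edgeR), with 15.2 and 9.13, 15 and 18, and 29.1 and 34.3 CPM in the SAG libraries of the 3 arms, against 7.26, 5.07 and 11.3 CPM untreated. Gas7, a membrane and actin-binding protein first known from growth arrest, had 131 and 131, 98.5 and 136, and 108 and 112 CPM in the SAG libraries, against 90.7, 36 and 35.3 CPM untreated. Its SAG levels were alike in the 3 arms, and the arms differed in the untreated level, so that the log2 difference was 0.53 in Experiment 1, 1.68 without Dox and 1.64 with Dox. Klf4, a zinc finger factor known for restraining proliferation, was the 1 member of 30 tested immediate early genes that was called higher (0.201% of all genes were), and Ier3 was the 1 called lower (0.558% were). In that list 1 gene was higher and 13 lower at an unadjusted p under 0.05 (DESeq2 called 1 and 6), the median was -0.36, and 12 of 30 were lower in each arm (19.8% of all genes were). By arm the median was -0.68 in Experiment 1, 0.04 without Dox and -0.1 with Dox, so the list as a whole was not lower in each arm. Klf4 had 70.4 and 54.4, 76.5 and 116, and 110 and 123 CPM in the SAG libraries, against 42.6, 41.1 and 56.1 CPM untreated, a log2 change of 0.94 ± 0.18 (SE; adjusted p = 0.0481, edgeR). The remaining members of the 12 were Arhgef10 (log2 1.03), Gse1 (0.96) and Add3, an adducin of the membrane skeleton (0.93), and all 3 were above the untreated library of their arm in 6 of 6 SAG libraries.

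Igfbp6, a binding protein that favours IGF2, was the 1 called higher of 13 tested members of the IGF list (0.201% of all genes were). It had 337 and 326 CPM in the SAG libraries of Experiment 1, 1309 and 1157 CPM without Dox and 733 and 838 CPM with Dox, against 242, 682 and 365 CPM untreated. The log2 change was 0.80 ± 0.15 (SE; adjusted p = 0.0489, edgeR), close to the threshold. The list's median was 0.38, and 7 of 13 members were higher in each arm (18.3% of all genes were). By arm this median was 0.03 in Experiment 1, 0.25 without Dox and 0.62 with Dox. At an unadjusted p under 0.05, 7 members were higher and 1 lower (edgeR), and DESeq2 called 4 and 1. Jag1, a Notch ligand (log2 0.90), Itpr3, an inositol trisphosphate receptor (0.91), Atoh8, a helix-loop-helix factor (3.05), and Gpr39, a zinc-sensing receptor (1.64), were also among the 27, and they are named here after their values were seen. Of the 27, 19 reached 10 CPM in a library; Atoh8 and Gpr39 stayed at or below 3.84 and 4.82 CPM.

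**Figure D2:**
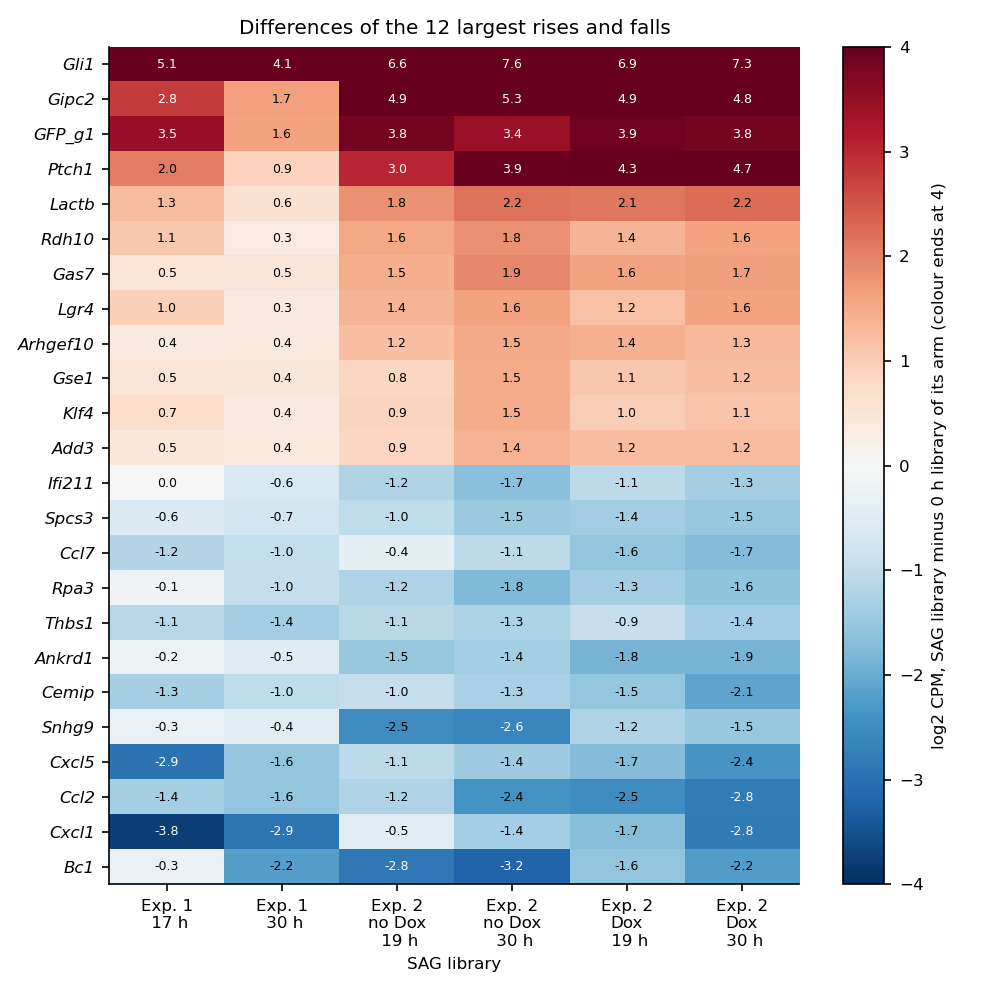
Difference in log2 CPM (prior count 2) between each of the 6 SAG libraries and the untreated library of its arm, for the 12 largest rises and the 12 largest falls, with red above 0 and blue below. In the 12 rises every cell is above 0 and the lowest values lie in Experiment 1, such as 0.94 for Ptch1 at 30 h.

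Of 21 tested genes of the NF-kB and chemokine list, 7 were called lower (0.558% of all genes were) and 0 higher, with 1 higher and 11 lower at an unadjusted p under 0.05 and 0 higher and 10 lower by DESeq2. The median was -0.36, and 13 of 21 were lower in each arm against 19.8% of all genes. The list's median by arm was -0.50, -0.54 and -0.20. Its summed level was 419.7 to 547.5 CPM in SAG libraries and 705.6 to 795.5 CPM in untreated libraries, with no overlap.

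Ccl2, the monocyte chemoattractant, fell by 1.97 ± 0.26 (log2, SE; adjusted p = 0.0199, edgeR). It had 31.9 and 27.7 CPM in the SAG libraries of Experiment 1, 36 and 16.1 CPM without Dox and 31.9 and 25.6 CPM with Dox, against 82.2, 85.1 and 179.5 CPM untreated. The SAG libraries lay in a narrow range below all 3 untreated libraries. Its neighbour Ccl7, a related chemokine, had 48.9 and 55.7, 61.7 and 38.1, and 41.6 and 37.5 CPM in the SAG libraries, against 111, 79.2 and 124 CPM untreated, and fell by 1.15 (log2; adjusted p = 0.034, edgeR).

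The neutrophil chemokines Cxcl1 and Cxcl5 fell as well. Cxcl1 had 0.888 and 1.62, 2.9 and 1.54, and 3.5 and 1.59 CPM in the SAG libraries of the 3 arms, against 12.4, 4.03 and 11.4 CPM untreated, and it fell by 2.10 ± 0.40 (log2, SE; adjusted p = 0.0481, edgeR). The log2 difference was -3.33, -0.92 and -2.26 in the 3 arms, smallest without Dox. Cxcl5 had 0.982 and 2.55, 2.83 and 2.19, and 6.04 and 3.9 CPM, against 7.76, 5.92 and 20.4 CPM untreated, and it fell by 1.79 (log2; adjusted p = 0.0212, edgeR). The 250 bases before the RefSeq start of Cxcl1 (chr5:90890995-90891244, plus strand) are shown, since they hold the NF-kB letters GGGA and TTCC with any 2 bases between them, a pattern whose matches overlap on both strands and stand in capitals.
Cxcl1: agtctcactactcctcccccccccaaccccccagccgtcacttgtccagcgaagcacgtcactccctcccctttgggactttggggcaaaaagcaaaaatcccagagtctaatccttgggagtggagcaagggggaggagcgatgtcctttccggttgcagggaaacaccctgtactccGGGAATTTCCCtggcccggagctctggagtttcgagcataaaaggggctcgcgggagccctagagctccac
These letters were in the windows of 3 of the 41 genes called lower in each arm that had a window (Cxcl1, Cxcl10 and Gm10778), against 1.21% of 32536 windows, and in 0 of the 19 rising genes with one. A gene with several windows counted if any of them matched, while the background counted single windows. The Cxcl1 window was chosen after this search.

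Vcam1, an adhesion receptor for leukocytes, fell to a similar extent in each arm, with log2 differences of -0.65, -0.76 and -0.86 (adjusted p = 0.021, edgeR). It had 22.5 and 23.9, 35.8 and 29.6, and 45.6 and 40.5 CPM in the SAG libraries, against 36.4, 55.1 and 77.9 CPM untreated. Nfkbiz, a nuclear co-regulator of NF-kB (log2 -0.78), and Lcn2, an iron-siderophore carrier of inflammation (-1.89, at or below 0.351 CPM in SAG libraries and 0.819 CPM in untreated libraries), were the other called members, named after their values were seen. Cxcl10, counted in the interferon list, fell by 1.73 (log2; adjusted p = 0.0481, edgeR), with at most 0.433 CPM in SAG libraries and 1.18 CPM in untreated libraries, and was the 1 of 21 tested members of that list that was called lower (0.558% of all genes were; 0 higher and 4 lower at an unadjusted p under 0.05, 0 and 2 by DESeq2). Ier3, an early response gene that NF-kB controls, had 12 and 12.4, 19.7 and 14.4, and 15.5 and 13.5 CPM in the SAG libraries, against 23.8, 26.6 and 24.6 CPM untreated, with no overlap, and fell by 0.79 (log2; adjusted p = 0.0306, edgeR).

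Thbs1, the matrix glycoprotein thrombospondin 1, fell by a similar amount in each arm. It had 83.4 and 70.3 CPM in the SAG libraries of Experiment 1, 97.7 and 87.2 CPM without Dox and 104 and 76.6 CPM with Dox, against 184, 210 and 195 CPM untreated. The log2 difference was -1.27, -1.18 and -1.13 in the 3 arms (all arms -1.19, SE 0.12; adjusted p = 0.00834, edgeR), and the groups did not overlap. Cemip, which breaks down hyaluronan, fell by 1.39 (log2; adjusted p = 0.0175, edgeR), with 6.5 and 8.13, 2.68 and 2.1, and 6.88 and 4.62 CPM in the SAG libraries, against 16.5, 5.24 and 20.1 CPM untreated. Ankrd1, a stress-responsive nuclear and sarcomeric protein, had 20 and 16.1, 109 and 119, and 30.1 and 30 CPM in the SAG libraries, against 22.8, 309 and 108 CPM untreated. Its fall was small in Experiment 1 (-0.35) and larger without Dox (-1.44) and with Dox (-1.85; all arms adjusted p = 0.037, edgeR). Of 28 tested genes of fibrillar and other matrix, Thbs1 was the 1 called lower (0.558% of all genes were) and 0 were called higher (0.201% were). At an unadjusted p under 0.05, 3 of them were higher and 7 lower (edgeR), and DESeq2 called 1 and 6. Of 18 genes of the basement membrane edgeR called 0, with 5 higher and 1 lower at an unadjusted p under 0.05 (DESeq2 called 3 and 0).

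At 30 h alone, 4 of these 18 were called higher (1.96% of all genes were) and 1 lower (3.69% were). Col4a1 and Col4a2, the chains of type IV collagen, had log2 changes of 2.33 ± 0.45 and 1.97 ± 0.41 (SE; adjusted p = 0.0345 and 0.0364, edgeR). Col4a1 had 179 and 85 CPM in the SAG libraries of Experiment 1, 94.7 and 209 CPM without Dox and 269 and 441 CPM with Dox, against 59.2, 27.3 and 48.3 CPM untreated, and every SAG library was above all untreated ones. The other genes called were the laminin chains Lama5 and Lamb2 (higher) and Col4a4 (lower, at or below 1.3 CPM in SAG libraries and 2.77 CPM in untreated libraries).

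Several other falls were named by the rule. Bnip3, a mitophagy receptor, was 0.58 lower on the log2 scale, with -0.52, -0.59 and -0.63 in the 3 arms (adjusted p = 0.0326, edgeR). It was the 1 called of 22 tested genes of glycolysis and hypoxia (0.558% of all genes were called lower). That list's median was 0.11, with 5 higher and 2 lower at an unadjusted p under 0.05 (edgeR) and 0 and 2 by DESeq2. Dkk2, a secreted modulator of Wnt signalling, fell by 1.47 (log2; adjusted p = 0.0347, edgeR) and was the 1 called of 11 tested Wnt genes (0.558% of all genes were called lower; 1 higher and 5 lower at an unadjusted p under 0.05, 0 and 3 by DESeq2). Rpa3, a subunit of the single-strand DNA binding complex, was the 1 called of 30 tested S phase genes (log2 -1.18, adjusted p = 0.0481, edgeR), against 0.558% of all genes called lower. In that list 2 were higher and 2 lower at an unadjusted p under 0.05 (edgeR), and DESeq2 called 0 and 1. The S phase median was -0.03, and 0 of 28 genes of G2 to M were called, with 2 higher and 5 lower at an unadjusted p under 0.05 (edgeR; DESeq2 called 0 and 2). Spcs3, a signal peptidase subunit, fell by 1.13 and Ifi211, an interferon-inducible gene with a close paralogue and a same-strand overlap with Mndal, fell by 1.08 on the log2 scale; Ifi211 was not below its untreated library in 1 of the 6 SAG libraries (2.06 CPM at 17 h, against 2.03 CPM untreated).

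Bc1 and Snhg9 are untranslated RNAs whose falls came mostly from Experiment 2. Bc1, a small cytoplasmic RNA, had 0.0935 and 0 CPM in the SAG libraries of Experiment 1, 51.4 and 40 CPM without Dox and 36.7 and 23.1 CPM with Dox, against 0.118, 371 and 109 CPM untreated. In Experiment 1 these levels were 2, 0 and 4 UMIs, so its direction there rested on almost no counts. Snhg9, which overlaps Rps2 on the other strand, had 1.07 and 0.967, 9.33 and 8.62, and 5.85 and 4.91 CPM in the SAG libraries, against 1.29, 52.8 and 13.9 CPM untreated; whether counting used strand is not given in the sources used here. The share of UMIs from ribosomal protein genes also was lower in the SAG libraries of Experiment 2, at 36.8% and 35.27% without Dox and 29.74% and 29.68% with Dox, against 41.32% and 35.91% untreated, while in Experiment 1 it was 29.54% and 29.26% in SAG libraries against 26.32% untreated. Cells with under 1% mitochondrial UMIs were 19.69% of the library of 30 h without Dox and 18.23% and 17.87% of those with Dox and SAG, and 0.43% to 1.41% of the others. Without those cells Bc1 was -2.50 (adjusted p = 0.00721, edgeR), Snhg9 -1.74 (0.0315) and Rpa3 -1.18 (0.0519).

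Among the remaining lists, 10 had 0 members called by edgeR over the 3 arms. Of these, 13 mitochondrially encoded genes had 0 higher and 7 lower at an unadjusted p under 0.05, and 40 cytosolic ribosomal protein genes had 0 and 4 (DESeq2 called 0 and 1 in each), with medians of 0.23 and 0.19 in Experiment 1, -0.90 and -0.42 without Dox and -0.93 and -0.69 with Dox. Unadjusted p-values under 0.05 were found for 5 higher and 4 lower of 18 TGF-beta targets, 4 and 3 of 19 genes of SRF and the contractile apparatus, 1 and 1 of 12 BMP and Id genes, and 6 and 2 of 30 genes of the primary cilium. DESeq2 called 3 and 0, 3 and 1, 0 and 1, and 1 and 1 of these lists. For cholesterol synthesis (24 tested) the unadjusted counts were 0 higher and 2 lower, for ATF4 and amino acid stress (19) 0 and 6, for ER chaperones (19) 0 and 5, and for adipogenic genes (10) 0 and 4, of which DESeq2 called 0 and 0, 0 and 3, 0 and 2, and 0 and 2. The list medians of these other 8 lay between -0.11 and 0.16, against -0.0013 over all genes.

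**Figure D3:**
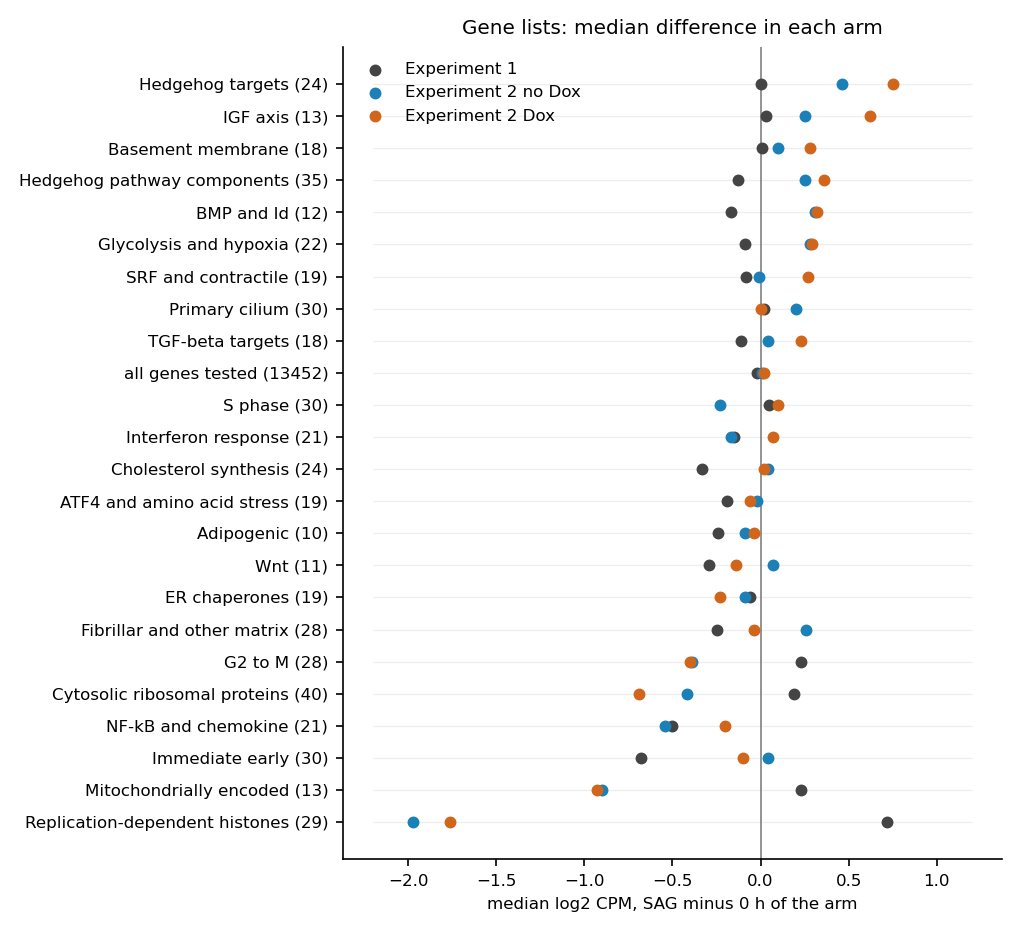
Median difference in log2 CPM, SAG minus 0 h, of each gene list in each arm, with the number of genes tested in brackets and all genes tested near 0. NF-kB and chemokine genes lie below 0 in the 3 arms, whereas histone, mitochondrially encoded and ribosomal protein genes lie above 0 in Experiment 1 and below 0 in both arms of Experiment 2.

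Sizes of response were also set side by side between the arms. Of the 27 rising genes, 23 had their smallest difference in Experiment 1, and the median rise was 0.70 there, 1.29 without Dox and 1.36 with Dox on the log2 scale. Of the 61 falling genes, 33 had their smallest difference in Experiment 1, with medians of -0.72, -0.92 and -1.13. Both sets were picked by a test over these same libraries. How many of all genes tested had their smallest difference in Experiment 1 was not computed, so these counts have no background beside them. No gene passed the edgeR test of a difference between the arms' responses (0%), and 1240 genes had an unadjusted p under 0.05 (9.22%), with 3 residual degrees of freedom. The 4 genes with the smallest p, each at an adjusted p of 0.0524, were Hist1h2ap, Fos, Fosb and Btg2. Fos, a subunit of AP-1, had 2.62 and 4.22 CPM in the SAG libraries of Experiment 1, 7.11 and 8.68 CPM without Dox and 6.35 and 7.83 CPM with Dox, against 35.3, 9.06 and 10.1 CPM untreated. The arms thus differed in the untreated library of Experiment 1, which stood above the other 8. Btg2, an antiproliferative early response gene, had 63.9 CPM in that library too, against 11.5 and 20.7 CPM in the other untreated ones, with 15.7 to 19.8 CPM in the 6 SAG libraries.

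Of the called falls, 14 were not lower in each arm (0.104% of all genes), and Hist1h3b, a replication-dependent histone, was among them. It had 0.281 and 0.0774 CPM in the SAG libraries of Experiment 1, 4.63 and 1.12 CPM without Dox and 1.4 and 0.602 CPM with Dox, against 0.0882, 16.5 and 9.64 CPM untreated. Over the 29 tested histone genes the median difference was 0.72 in Experiment 1, -1.97 without Dox and -1.76 with Dox, and such near-identical genes may share reads. Hist1h3b was the 1 of the 29 called lower and 0 were called higher, with 0 higher and 22 lower at an unadjusted p under 0.05 (edgeR; DESeq2 called 0 and 5), and at 30 h 11 were called lower (3.69% of all genes were). Aldh1a3, a retinaldehyde dehydrogenase, was called lower on the strength of Experiment 2, with at most 0.0468 CPM in Experiment 1. Gm16105, Olfr1124 and Gm13832 were likewise -3.09, -2.74 and -2.18 without Dox and -3.42, -2.23 and -2.63 with Dox, against 0.03, 0.05 and 0.37 in Experiment 1 (log2).

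The times were compared with the arm as a block. At 17 or 19 h, 2 genes were called higher (0.0149%), Gli1 and GFP_g1, and 1 lower (0.00743%), Thbs1 (edgeR). At 30 h, 264 were called higher (1.96%) and 496 lower (3.69%), and all 102 of the genes called over both times were among them. Of the 264, 235 were also above the untreated library in the 3 libraries of 17 or 19 h, and of the 496, 315 were below it. Both times were compared with the same untreated libraries, so part of this agreement is built in. The share of all genes with 1 sign at 17 or 19 h was not computed. Between 30 h and 17 or 19 h edgeR called 0 genes (0%), with 637 at an unadjusted p under 0.05 (4.74%; the 4 of smallest p, Hist1h2ab, Hist1h3b, Hist1h3f and Idi1, had log2 differences of -1.91, -1.73, -1.99 and -0.64), so an effect past the threshold at 30 h and not before was not shown to differ between the times. The median log2 change of the 27 rising genes was 1.13 at 17 or 19 h and 1.09 at 30 h, and that of the 61 falling genes was -0.92 and -1.14. In Experiment 1, Gli1, Ptch1, GFP_g1, Gipc2, Lactb, Rdh10 and Lgr4 were lower at 30 h than at 17 h, and in Experiment 2 all of these but GFP_g1 and Gipc2 were higher at 30 h than at 19 h in both arms.

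Shares of cells were compared after each cell was thinned at random to 5000 UMIs, which also evened out the shallow library. A Gli1 UMI was seen in 4.9% and 2.22% of cells in the SAG libraries of Experiment 1, in 3.34% and 8.53% without Dox and in 12% and 14.9% with Dox, against 0.214%, 0% and 0.0734% in untreated cells. In the untreated library without Dox, 0 of 2973 thinned cells had one, which allows a share of up to 0.101% of cells with a UMI at this depth (3 counts, counting error only); the same library held 3 Gli1 UMIs before thinning. A Ptch1 UMI was seen in 10.2% and 4.79%, 11.7% and 24.4%, and 33.2% and 40.1% of SAG-treated cells, against 3.22%, 1.04% and 1.76% of untreated cells. In Experiment 1 at 30 h the interval of Ptch1, 3.2% to 6.84% (exact binomial, 95%, counting error only), overlapped that of the untreated cells, 2.18% to 4.56%. Most cells of every SAG library had neither transcript at this depth, which does not show that they lacked it.

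Falls and rises of expressed genes also appeared as shares. Thbs1 was seen in 20% and 22.6%, 31.6% and 23.6%, and 31.3% and 25.5% of SAG-treated cells, against 44.4%, 42.5% and 44.6% of untreated cells. Ccl2 was seen in 6.65% and 5.47%, 10.1% and 5.79%, and 10.7% and 8.56% of SAG-treated cells, against 16.1%, 19.6% and 39.9%, with 1.21 to 2.29 UMIs per cell that had any in SAG libraries and 1.43 to 2.37 in untreated libraries. Igfbp6 was seen in 76.4% and 75.6%, 97.6% and 95.7%, and 95.2% and 96.6% of SAG-treated cells, against 70.8%, 82% and 70.6%. The line holds no second cell type that lacks these genes, so the share that free RNA gives could not be measured here.

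**Figure D4:**
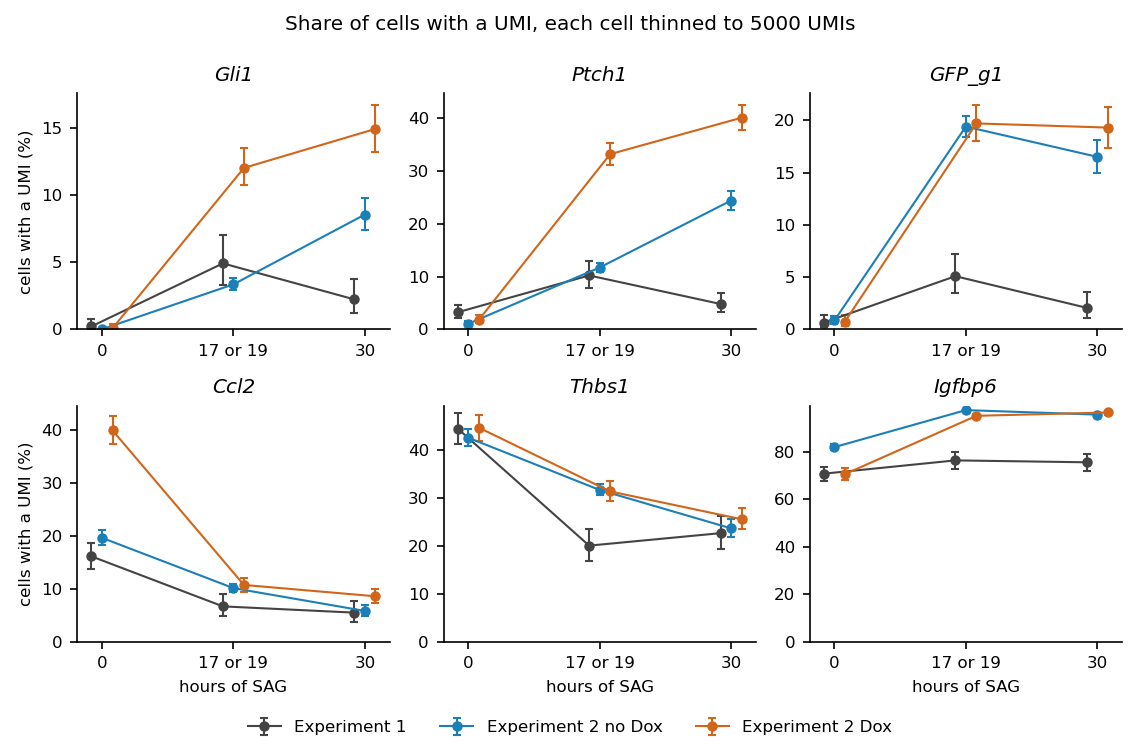
Share of cells with at least 1 UMI of a gene after thinning to 5000 UMIs per cell, against hours of SAG, with 0 h untreated, 1 line per arm and exact binomial 95% intervals. Gli1 and Ptch1 shares with Dox reach 14.9% and 40.1% at 30 h, and Thbs1 lies between 20% and 31.6% in SAG libraries and between 42.5% and 44.6% in untreated libraries.

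The number of genes called depended on single libraries. Leaving out the untreated library of Experiment 1 gave 3964 called genes, leaving out that of Experiment 2 without Dox gave 0 (1358 at an unadjusted p under 0.05), and leaving out that with Dox gave 2 (edgeR). Without the SAG library of 17 h in Experiment 1, 76 were called, without that of 30 h 59, without 19 h and 30 h of the arm without Dox 54 and 82, and without 19 h and 30 h of the arm with Dox 7 and 13. Of the 30 named genes that were called in the same direction in each arm, 30 kept their call without the untreated library of Experiment 1, 0 without that of the arm without Dox, and Gli1 and Bc1 without that of the arm with Dox. All 30 kept their direction in each of these fits. They were chosen for 1 sign in each arm of these same libraries, so their kept direction is no separate support. Gli1 was 6.29 (adjusted p = 0.0665, edgeR) and Ptch1 2.90 (0.374) without the untreated library of the arm without Dox, and Thbs1 was -1.19 (0.121).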

How the data were processed

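The authors deposited UMI counts per gene and barcode, written by Cell Ranger per the submitters' processing notes, against mm10; per the file headers the software version was 3.1.0 for Experiment 1 and 6.0.1 for Experiment 2. How barcodes were chosen is not given in the sources used here. Features were joined by gene ID (30407 shared, 597 under another symbol), barcodes were kept as described, of which the mitochondrial limit removed 25.9% to 46.3%, and counts were summed per library. No doublet caller was run. Genes were tested with edgeR 4.0.16 in R 4.3.3 (filterByExpr, TMM, quasi-likelihood F test, Benjamini-Hochberg over 13452 genes), with arm and SAG as terms (5 residual degrees of freedom), arm and time (4), or their interaction (3). Standard errors were taken as the log2 change over the root of F. Within an arm, differences are between log2 CPM values to which a prior count of 2 was added. The arms pair the libraries: SAG and untreated libraries of an arm deviated together (correlation 0.728 to 0.806). On simulated counts 45 to 50 of 50 genes changed by 1 or 2 on the log2 scale were recovered, and 12 unchanged genes were called. Thinning and intervals used Python 3.11.15 with numpy 2.4.6, scipy 1.17.1 and pandas 2.3.3. Gene positions are from GENCODE vM21 and promoters from RefSeq.

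The text names the Gli genes (Gli1, Gli2, Gli3), Ptch1, Smo, Sufu, Hhip and the added feature, the 12 largest rises and falls among called genes with 1 sign in the 3 arms and 10 CPM in a library, up to 4 called genes per list, up to 4 called genes not of 1 sign in the 3 arms, and the 4 of smallest p for arms and times; an item that this rule names is not reported here. The comparison, the lists and these rules were chosen with earlier results of these data known. The alternatives were RLE factors, DESeq2 1.42.0, no filter on counts, no block, time as 3 levels, other limits on cells, and leaving out each arm or library.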

Additional observations from a re-analysis of the deposited data

Results flagged for a closer look

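In the GFP_g1 feature, the SAG library of 30 h in Experiment 1 was 1.62 above its untreated library on the log2 scale, while the other 5 SAG libraries were 3.45 to 3.88 above theirs. It stood apart by the ratio of its gap to the range of the 6 values (0.81, above Dixon's 95% critical value). Of 54 sets of 6 values examined, chance alone would mark about 1 in 20. The SAG library of 19 h without Dox stood apart by the same measure in its median depth of 8025 UMIs per kept cell, its share of 25.32% of cells over 3 times the median (0% to 0.68% in the other SAG libraries) and its share of 60.0% of cells with 5000 to 10000 UMIs (3.1% to 5.4%).

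The medians of 7 lists had 1 sign in the SAG libraries of Experiment 1 and the other sign in all 4 of Experiment 2, and these differences were not tested. The median log2 difference in Experiment 1 was 0.72 for replication-dependent histones (-2.75 to -1.04 in Experiment 2), 0.23 for mitochondrially encoded genes (-1.35 to -0.55), 0.19 for cytosolic ribosomal proteins (-0.71 to -0.19), 0.23 for genes of G2 to M (-0.49 to -0.26), -0.17 for BMP and Id genes (0.19 to 0.43), -0.13 for Hedgehog pathway components (0.12 to 0.44) and -0.11 for TGF-beta targets (0.03 to 0.33).

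In the barcodes over 10% mitochondrial UMIs, which the reported comparisons leave out, Gli1 was also higher with SAG. The lowest of the 6 SAG libraries had 9.433 CPM of all UMIs there, and the highest of the 3 untreated libraries had 0.5288 CPM.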

How the results depend on the processing

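The direction of the named genes held under nearly every alternative, while the number of genes called did not. Genes named for a call with 1 sign in each arm were chosen from these same libraries, so their kept direction is no separate support. Of 1057 values of named genes, 719 kept direction and side of the threshold, 312 lost their call, 23 gained one and 3 changed sign. The 3 were Btg2, at 0.26 on the log2 scale without untreated replicate 1 (-0.97 to 0.26 over the fits without 1 library) and 0.26 with Experiment 1 left out, and Idi1, at 0 in the barcodes over 10% mitochondrial UMIs; neither gene was called over the 3 arms. The cause of these changes was not tested.

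With no replicate block (the arms not paired), edgeR called 0 genes higher and 0 lower over the 3 arms, with 0 and 0 in each arm, with 781 at an unadjusted p under 0.05, and 0 and 0 at 17 to 19 h and at 30 h.

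Counts are given as higher and lower over the 3 arms, then as higher and lower in each arm, and the values reported were 27 and 75, and 27 and 61. DESeq2 gave 547 and 665, and 527 and 561, and shared 98 of the 102 calls. Without a filter on counts there were 130 and 190, and 129 and 135, with 46 and 49 at 17 to 19 h, 933 and 1004 at 30 h and 54 for the difference between arms. Time as 3 levels gave 94 and 228, and 93 and 173. No mitochondrial limit gave 56 and 115, and 56 and 101, a limit of 5% gave 6 and 35, and 5 and 22, and the barcodes over 10%, an alternative chosen after seeing the data, gave 188 and 280, and 186 and 246. Of the 102 calls these 3 settings shared 86, 15 and 71. At the 5% limit, 29 named genes that had been called with 1 sign in each arm were tested. Of these 18 lost their call, among them Ptch1 (adjusted p = 0.0708, edgeR) and Thbs1 (0.0817). Leaving out cells over 3 times the median depth gave 45 lower, 41 of them in each arm. Leaving out cells under 1% mitochondrial UMIs gave 2 lower at 17 to 19 h and 6 for the difference between arms. Leaving out Experiment 1 gave 1534 and 1555, Experiment 2 without Dox 0 and 0 (1858 at an unadjusted p under 0.05), and Experiment 2 with Dox 1 and 1.

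Leaving out 1 library at a time gave 0 to 2007 higher and 0 to 1957 lower, 2 to 27 and 5 to 58 in each arm where 3 arms remained, 0 to 1199 and 0 to 1288 at 17 to 19 h, 1 to 3085 and 0 to 2909 at 30 h, 0 to 0 and 0 to 15 between the times, and 0 to 1797 for the difference between arms, which could not be fitted without an untreated library. The size of the Gli1 rise is limited by depth, since its untreated levels rest on 7, 3 and 5 UMIs.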

Other observations

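Genes outside the lists were also lower with SAG in each arm; they are named here after their values were seen. F2r, the thrombin receptor, had 28.3 and 24.6 CPM in the SAG libraries of Experiment 1, 28.1 and 23.6 CPM without Dox and 21.8 and 17.2 CPM with Dox, against 42.6, 49.4 and 39.4 CPM untreated (log2 -0.88, adjusted p = 0.0199, edgeR), and the groups did not overlap. S1pr1, a receptor of sphingosine 1-phosphate (-0.82), Adora2b, an adenosine receptor (-0.81), and Il1rl1, the receptor of interleukin 33 (-0.77), were called lower as well. Il1rl1 had 350 and 384, 101 and 72.9, and 63.3 and 56.4 CPM in the SAG libraries, against 526, 150 and 120 CPM untreated, so the untreated level differed more between experiments than SAG changed it.

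Zfp36l1, which promotes decay of mRNAs with AU-rich elements, was -0.68, Errfi1, an inhibitor of the EGF receptor, was -0.61, and Sgk1, a serum- and glucocorticoid-induced kinase, was -0.57 on the log2 scale, each called lower by edgeR. Sgk1 had 54.2 and 49.7, 43.5 and 44.9, and 40 and 40.6 CPM in the SAG libraries, against 78.6, 67.5 and 56.9 CPM untreated, with no overlap between the groups.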
